A study of Homo sapiens with 12 samples.

Results

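The genes described here are 130 long noncoding RNA genes with LINC names whose deposited signal averaged at least 5.0 on the log2 scale. They were chosen by their mean over all 12 arrays, among 449 LINC genes and 14118 genes with a usable probe set. A LINC gene counted when its symbol was LINC followed by a digit, LINC00475 was left out by the rule, and a gene with several probe sets was read from the one with the highest mean. NCBI RefSeq lists all 130 as long noncoding RNA genes. The samples came from 3 human colorectal carcinoma lines with wild-type p53 per the labels (HCT116, SW48, RKO) and were hybridised to Affymetrix Human Gene 2.0 ST arrays. In each line, 2 samples were untreated and 2 had received Nutlin-3a at 10 µM for 8 h, which makes 6 groups. The labels call the samples of a group duplicates without saying that they were separate cultures, so the p-values measure only the spread between these samples, which may be technical.

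LINC names are given to long noncoding RNA genes that mostly lie between protein-coding genes, and the number in a name carries no function. Such RNAs are transcribed and often spliced like messenger RNAs, are usually less abundant and more restricted to certain cell types than messenger RNAs, and have been studied as scaffolds, as decoys and as regulators of neighbouring genes. p53 is a transcription factor that MDM2 keeps low. Nutlin-3a occupies the p53 pocket of MDM2, and freed p53 switches on genes of cell cycle arrest, DNA repair and cell death together with several long noncoding RNAs.

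The arrays had medians between 4.97 and 5.05, so the threshold of 5.0 lay at about the middle of an array, and arrays within a group had r of 0.996 to 0.997 over all probe sets. The p53 response was present in every line: of 20 protein-coding p53 targets in a fixed list 11 were measured, and 11 of 11 rose in each line, with a median mean effect of 1.22 on the log2 scale. TP53INP1, which acts in p53-dependent cell death, rose by 2.03 ± 0.044 (SE) over the lines, and the secreted factor GDF15 rose by 1.82 ± 0.055. Of 16 intestinal epithelial markers 12 were measured, with means from 4.17 (CEACAM6) to 9.35 (EPCAM), and 10 reached 5.0. CDX2 ran from 7.34 to 9.63 over the arrays and KRT18 from 7.13 to 8.24, while GPA33 averaged 5.53 and KRT20 4.64. Several markers differed widely between lines. Untreated means in HCT116, SW48 and RKO were 11.02, 11.12 and 6.03 for EPCAM and 10.55, 10.71 and 4.28 for ESRP1. They were 10.13, 8.74 and 6.22 for KRT19 and 4.37, 9.25 and 4.67 for CEACAM5. The extraction text names thyroid tissue and the growth text names only HCT116. The 6 measured thyroid markers averaged from 4.34 (DUOX2) to 6.03 (NKX2-1), with TG at 5.18 and PAX8 at 5.66, and 3 of them reached 5.0. The 3 measured fibroblast markers ran from 3.14 (DCN) to 5.66 (THY1), the 3 endothelial ones from 4.31 to 6.07 and the 4 immune ones from 3.97 to 9.28 (CD68). The ranges of these lists overlap.

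The word expressed fits only part of the set. A family that colon cells have little use for, the hair keratin-associated and late cornified envelope proteins, gave a reference: its 92 measured genes had a median of 4.19, a 90th percentile of 5.73 and a maximum of 7.03. Of these 92 genes, 20 (21.7%) passed the same threshold of 5.0. The LINC genes above that 90th percentile numbered 65, another 65 lay at or below it, and 26 lay above the family's maximum. The 3 LINC genes just inside the threshold were LINC02610 at 5.04, LINC01235 at 5.02 and LINC01299 at 5.02, and the 3 just outside were LINC00460 at 5.00, LINC00885 at 4.99 and LINC00628 at 4.99. Signal at the lower end therefore cannot be told apart from probe background, and signals of different probe sets are not amounts that can be ranked against each other.

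**Figure D1:**
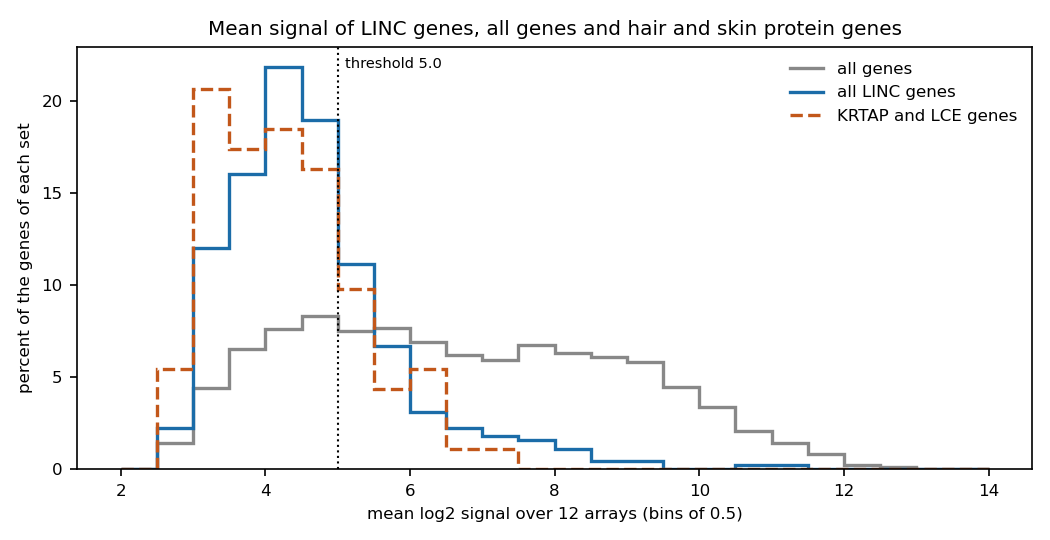
Distribution of the mean log2 signal over 12 arrays (horizontal axis, bins of 0.5) as the percent of each set (vertical axis) for all 14118 genes, all 449 LINC genes and 92 hair and skin protein genes. The dotted line is the threshold of 5.0. The LINC genes pile up on the dim side near the hair and skin family, with a thin tail of bright genes.

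Nutlin-3a moved few of these RNAs. In the mean over the 3 lines 5 of 130 rose and 4 fell, where 4.33% of all genes rose and 6.44% fell. In HCT116 2 rose (background 3.08%) and 0 fell (background 2.03%). The fall count comes from limma, and 9 had an unadjusted p under 0.05 in that direction. In SW48 3 rose (background 1.38%) and 1 fell (background 1.74%). In RKO 0 rose by limma (background 1.23%), with 9 at an unadjusted p under 0.05, and 1 fell (background 0.793%). These counts are small, and the shares stood on both sides of their backgrounds. In all 12 genes passed a Nutlin-3a test in a line or over the lines, and 118 passed none. The share of all genes that passed either kind of test was not counted. In at least 1 line 6 of the 130 passed (4.62%), beside 7.45% of all genes. For the mean effect 9 passed (6.92%). That share was 10.8% over all genes, 14.3% over genes at 5.0 or above and 6.04% over other long noncoding RNA genes there. The median effect of the 130 genes was 0.01 in HCT116, 0.01 in SW48 and 0.03 in RKO on the log2 scale. Over all genes it was -0.01, -0.01 and -0.01. The effect differed between the lines for 1 gene, LINC00294, with a background of 0.503% by adjusted p. In that test 23 had an unadjusted p under 0.05. The share of all genes at that unadjusted cut was not counted, here or for both counts of 9 above, so these counts have no background.

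**Figure D2:**
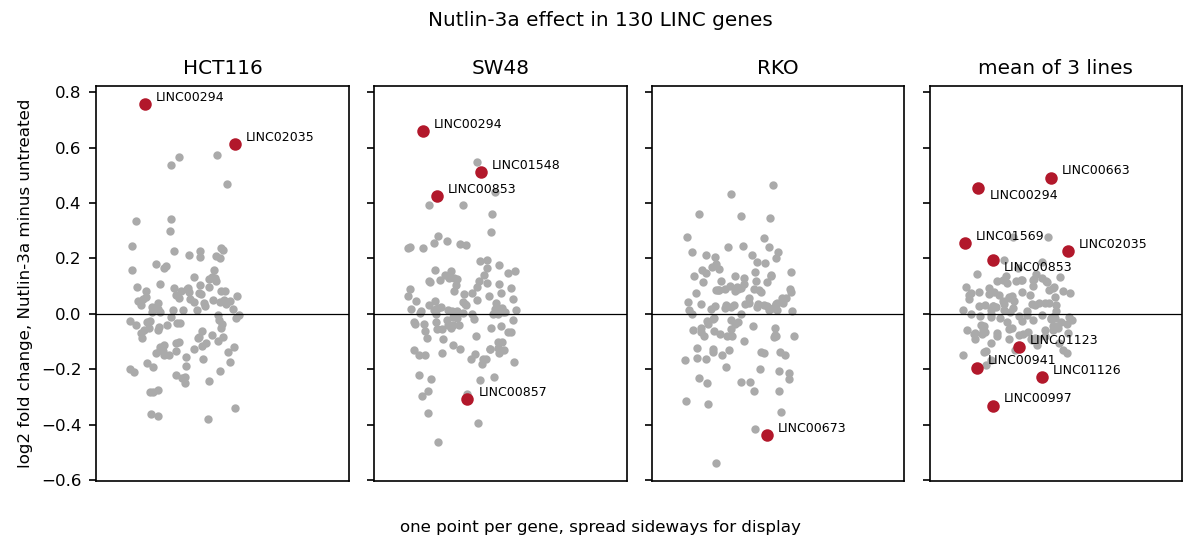
Log2 fold change, Nutlin-3a minus untreated (vertical axis), for 130 LINC genes, one point per gene, in HCT116, SW48, RKO and the mean of the 3 lines. Named red points passed the test at an adjusted p under 0.05. Most points lie close to 0, and LINC00294 is the highest point in HCT116 and SW48 but is not marked in RKO.

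LINC00294 was the clearest responder and the gene whose response depended on the line. Its log2 signal in HCT116 was 8.09 and 8.19 untreated and 8.90 and 8.90 with Nutlin-3a. In SW48 it was 10.25 and 10.14 untreated and 10.81 and 10.90 with Nutlin-3a. In RKO it was 9.08 and 9.04 untreated and 9.01 and 9.01 with Nutlin-3a. The treated arrays lay above the untreated ones in HCT116 and SW48, and just below them in RKO. The rise was 1.69-fold in HCT116 (log2 0.76 ± 0.066 SE, adjusted p = 0.000177, limma) and 1.58-fold in SW48 (log2 0.66 ± 0.066, adjusted p = 0.000451). In RKO the log2 difference was -0.05 ± 0.066 (adjusted p = 0.763). The test that the 3 effects are equal gave an adjusted p of 0.0103. The RKO effect was lower than that of HCT116 by a log2 difference of -0.81 ± 0.093 and than that of SW48 by -0.71 ± 0.093, while SW48 and HCT116 differed by -0.10 ± 0.093. Without either RKO untreated array the adjusted p of that test rose to as much as 0.0584, and the rises in HCT116 and SW48 passed whichever array was left out.

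LINC00663 and LINC01569 moved by similar amounts in all 3 lines. Their treated arrays lay above both untreated arrays in every line, which held for 2 of the 130 genes against 3.23% of all genes. The opposite pattern, treated arrays below in every line, was seen in 0 of the 130 against 6.23% of all genes. LINC00663 read 5.17 and 5.45 untreated against 5.89 and 5.87 treated in HCT116, 5.97 and 5.78 against 6.10 and 6.53 in SW48, and 5.75 and 5.84 against 6.38 and 6.14 in RKO. It rose by 0.49 ± 0.085 over the lines (1.41-fold, adjusted p = 0.00562), with line values of 0.57, 0.44 and 0.46, none of which passed alone. A second, dimmer probe set of LINC00663 gave a mean effect of 0.03, and the mean of both probe sets gave 0.26. LINC01569 read 5.21 and 5.39 untreated against 5.55 and 5.54 treated in HCT116, 5.45 and 5.45 against 5.65 and 5.73 in SW48, and 5.58 and 5.66 against 5.92 and 5.88 in RKO. It rose by 0.26 ± 0.041 over the lines (1.19-fold, adjusted p = 0.00345). LINC00663 averaged 5.91, above the set's median of 5.74, and LINC01569, with arrays from 5.21 to 5.92, averaged below that median. LINC01569 also averaged below 5.73, the 90th percentile of the hair and skin family, as did each of its untreated arrays. The untreated HCT116 arrays of LINC00663 lay below 5.73 too, while those of SW48 and RKO lay above it. Signal below that level was not told apart from probe background. Both calls held whichever array was left out.

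The promoters of LINC00294, LINC01569 and LINC00853 are shown because the rise of these genes over the lines held whichever array was left out. It also held for LINC00663, which has no entry in the RefSeq promoter table used here. Each covers 300 bases, most of them before the start, in GRCh38.p14, read 5′ to 3′ on the gene's own strand. Capitals mark a CCAAT box (CCAAT), a GC box (GGGCGG) or a TATA box (TATAAA) on either strand. LINC00294 lies at chr11:33075900-33076199 on the plus strand, LINC01569 at chr16:4253740-4254039 on the minus strand and LINC00853 at chr1:47179000-47179299 on the plus strand.
LINC00294: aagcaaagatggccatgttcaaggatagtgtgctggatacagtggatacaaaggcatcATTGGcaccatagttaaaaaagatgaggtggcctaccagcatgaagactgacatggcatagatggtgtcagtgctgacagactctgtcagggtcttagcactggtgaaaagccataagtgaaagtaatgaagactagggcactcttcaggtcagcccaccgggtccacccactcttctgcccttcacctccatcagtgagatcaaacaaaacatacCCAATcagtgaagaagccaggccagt
LINC01569: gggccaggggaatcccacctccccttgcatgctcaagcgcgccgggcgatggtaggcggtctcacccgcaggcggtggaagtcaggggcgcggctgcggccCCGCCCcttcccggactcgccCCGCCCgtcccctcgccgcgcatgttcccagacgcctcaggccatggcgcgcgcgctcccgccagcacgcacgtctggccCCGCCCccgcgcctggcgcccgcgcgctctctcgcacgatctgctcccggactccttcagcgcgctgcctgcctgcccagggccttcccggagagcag
LINC00853: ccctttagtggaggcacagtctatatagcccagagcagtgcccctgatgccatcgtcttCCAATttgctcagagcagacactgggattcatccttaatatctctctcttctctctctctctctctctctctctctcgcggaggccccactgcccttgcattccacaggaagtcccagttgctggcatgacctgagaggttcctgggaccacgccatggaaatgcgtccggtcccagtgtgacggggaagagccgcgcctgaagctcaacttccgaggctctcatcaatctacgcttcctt
The 3 sequences have little in common. The LINC00294 window holds 2 CCAAT boxes and few CpG pairs, with an observed over expected CpG ratio of 0.058. LINC01569 has a CpG-rich start, with a ratio of 0.93 and 3 GC boxes, and LINC00853 lies between them with a ratio of 0.498 and 1 CCAAT box. A p53 half-site, by its consensus, had 0 matches in each of the 3 windows. Over 108 promoters of the set it matched in 2 (1.85%), against 6.64% of all promoters of this length, and these windows say nothing of sites further away.

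LINC02035, LINC00853 and LINC01548 rose in a single line. LINC02035 read 6.68 and 6.68 untreated and 7.16 and 7.43 with Nutlin-3a in HCT116, a rise of 0.61 ± 0.099 (1.53-fold, adjusted p = 0.00696). In SW48 its arrays overlapped, at 7.22 and 7.10 untreated against 7.17 and 7.10, as they did in RKO, where the difference was 0.09 ± 0.099 (adjusted p = 0.717). Its rise over the lines, 0.23 ± 0.057 (adjusted p = 0.0329), was lost without any of 8 of the 12 arrays (all but HCT116 Nutlin-3a replicate 1, SW48 untreated replicate 1 and both arrays numbered 1 of RKO; adjusted p up to 0.0844), and the HCT116 call was lost without HCT116 untreated replicate 1 or HCT116 Nutlin-3a replicate 2 (adjusted p up to 0.0548). LINC00853 averaged 5.99 ± 0.015 (SD, n = 2) untreated and read 6.36 and 6.48 treated in SW48, a rise of 0.42 ± 0.068 (1.34-fold, adjusted p = 0.00896). Its treated arrays in RKO, 5.69 and 5.68, also stood above the untreated mean of 5.48 ± 0.031 (SD, n = 2), without passing the test (0.21 ± 0.068, adjusted p = 0.165), and HCT116 gave -0.05. LINC00853 rose by 0.19 ± 0.039 over the lines (adjusted p = 0.0123), a call that held without any 1 array, while the SW48 call was lost without either SW48 untreated array or SW48 Nutlin-3a replicate 2 (adjusted p up to 0.0791). LINC01548 read 5.22 and 5.48 untreated and 5.81 and 5.92 treated in SW48, a rise of 0.51 ± 0.10 (adjusted p = 0.0287). The LINC01548 call was lost without SW48 untreated replicate 1 or either SW48 Nutlin-3a array (adjusted p up to 0.186). For these 3 genes the test of a difference between lines did not pass, with adjusted p of 0.135 for LINC02035, 0.132 for LINC00853 and 0.154 for LINC01548.

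The falls were small. LINC00673, a long RNA studied in several carcinomas, read 5.98 and 5.75 untreated and 5.32 and 5.53 treated in RKO, a fall of 0.44 on the log2 scale (adjusted p = 0.0481). LINC00857, studied in lung and bladder cancers, read 8.54 and 8.67 untreated and 8.28 and 8.31 treated in SW48, where it fell by 0.31 (adjusted p = 0.0384). Over the 3 lines LINC00997 fell by 0.33, LINC01126 fell by 0.23, LINC00941 fell by 0.19 and LINC01123 fell by 0.12, with adjusted p between 0.0406 and 0.0493. LINC00997 read 8.35 and 7.95 untreated against 7.69 and 7.68 in SW48 and 7.05 and 6.93 against 6.22 and 6.69 in RKO, while HCT116 stayed between 7.11 and 7.29. LINC01126 was lowest with Nutlin-3a in HCT116, where 5.56 and 5.59 became 5.27 and 5.13. All 6 falls sat close to the threshold: the call was lost without any of 10 arrays for LINC00857, LINC00941, LINC00997 and LINC01126, of 11 arrays for LINC00673 and of 12 arrays for LINC01123. The exceptions, whose removal kept the call, were both RKO untreated arrays for LINC00857, RKO untreated replicate 2 for LINC00673, HCT116 Nutlin-3a replicate 2 and SW48 untreated replicate 1 for LINC00941, SW48 untreated replicate 2 and RKO Nutlin-3a replicate 2 for LINC00997, and SW48 untreated replicate 1 and RKO Nutlin-3a replicate 1 for LINC01126. The array whose removal raised the adjusted p most took it to 0.236 for LINC00673, 0.167 for LINC00857 and 0.0981 for LINC01123.

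**Figure D3:**
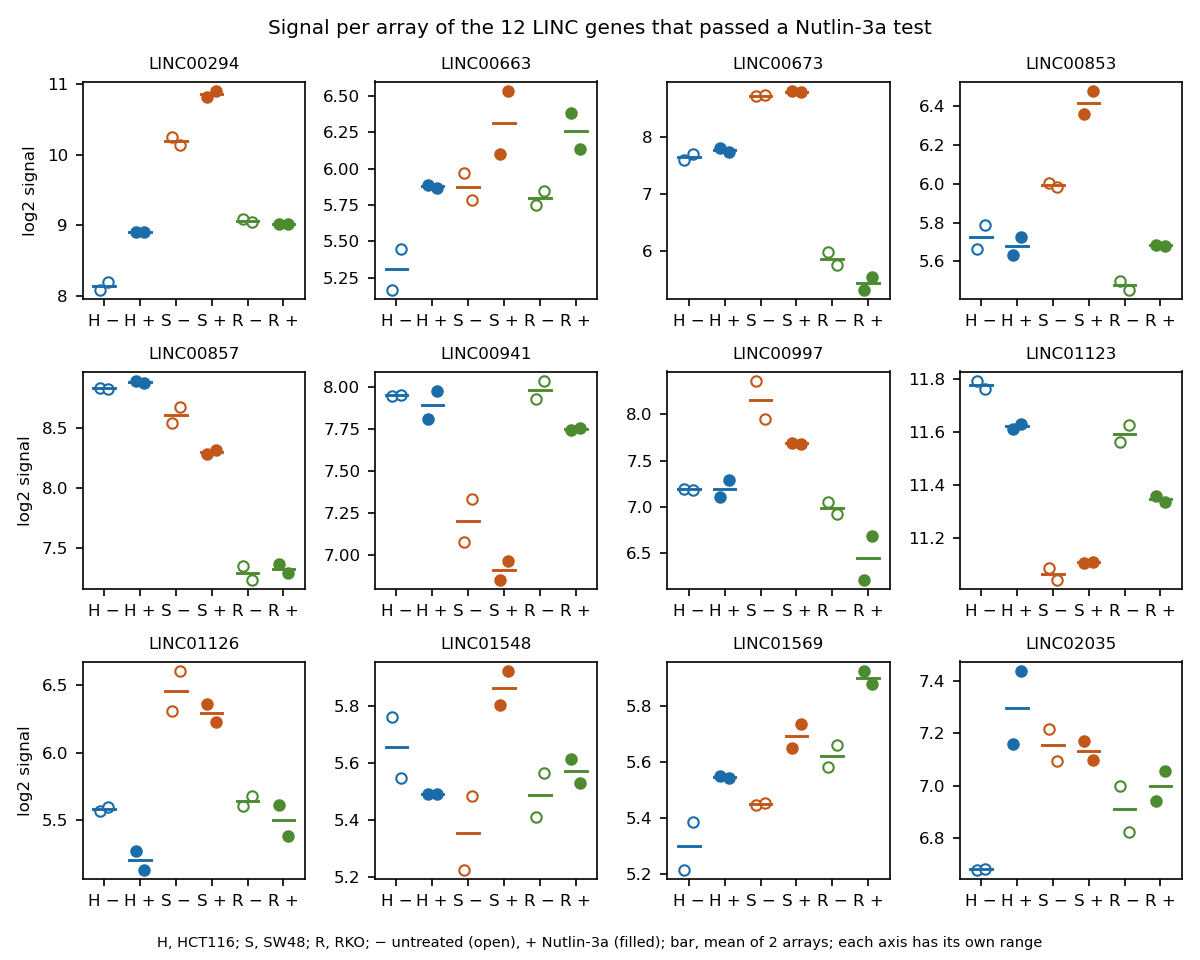
Log2 signal (vertical axes, each with its own range) on every array for the 12 LINC genes that passed a Nutlin-3a test. Open circles are untreated, filled circles are Nutlin-3a, bars are means of 2 arrays, and H, S and R are HCT116, SW48 and RKO. LINC00294 steps up in H and S only, and LINC00663 and LINC01569 step up in all 3 lines.

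For scale, 4 long noncoding RNAs linked to p53 under other names were measured. PURPL, a p53-induced RNA, rose by 1.55 ± 0.079 over the lines, and MIR22HG, the host transcript of miR-22, rose by 0.45 ± 0.052. LINC-PINT, itself a p53-linked RNA whose symbol has no digit, gave 0.14 ± 0.070 (adjusted p = 0.25), and MEG3 gave 0.11 ± 0.048 (adjusted p = 0.209). The largest mean rise among the 130 LINC genes, 0.49 in LINC00663, was close to that of MIR22HG and below that of PURPL, each on its own probe set. LINC00999 and LINC00174 had mean differences of 0.28 ± 0.11 and 0.28 ± 0.089 and did not pass (adjusted p = 0.138 and 0.0804), and a second probe set of LINC00999 gave -0.31.

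Levels of these RNAs differed far more between cell lines than with Nutlin-3a. Per gene, a median of 63.4% of the variance over the 12 arrays lay between lines, beside 70.0% over all genes. A median of 10.4% lay between treated and untreated means within lines and 16.2% within groups, beside 10.7% and 11.7% over all genes. These are raw shares, and scatter between duplicate arrays was not taken off the line and treatment shares. Untreated levels differed between the lines for 72 of 130 (55.4%) by limma's F test, and for 58.1% of all genes. Among genes with a mean of at least 5.0 the share was 72.9%, and among other long noncoding RNA genes there 59.5%. SW48 and HCT116 differed in 58 (background 44.9%), 42 of them higher in SW48 (32.3%, background 22.7%). RKO and HCT116 differed in 49 (background 41.5%), 25 of them higher in RKO (19.2%, background 22.4%). RKO and SW48 differed in 56 (background 44.7%), 39 of them lower in RKO (30%, background 21.1%). Untreated means lay over 1 apart on the log2 scale, that is over 2-fold, in 30 genes, 23.1% beside 15% of all genes and 19.1% of the genes with a mean of at least 5.0.

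The highest line was SW48 in 17 of these 30 genes, HCT116 in 7 and RKO in 6. Higher than both other lines by the pairwise tests were 30 genes in SW48 (23.1%, background 13.5%), 13 in HCT116 (background 10.3%) and 10 in RKO (background 12.4%). Lower than both others were 5 in SW48 (background 12.7%), 16 in HCT116 (background 11%) and 14 in RKO (background 9.07%). The threshold used the same signals, and a gene that reached 5.0 through 1 line had to differ, so these shares describe the set and test nothing about it. In 108 genes every line's mean reached 5.0, and 21 of the 30 SW48-high genes were among them. In 14 genes 2 lines reached it and in 8 only 1 line did. The 8 include LINC00842, LINC02893, LINC00649 and LINC00174 through SW48 and LINC00667 and LINC00526 through RKO.

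**Figure D4:**
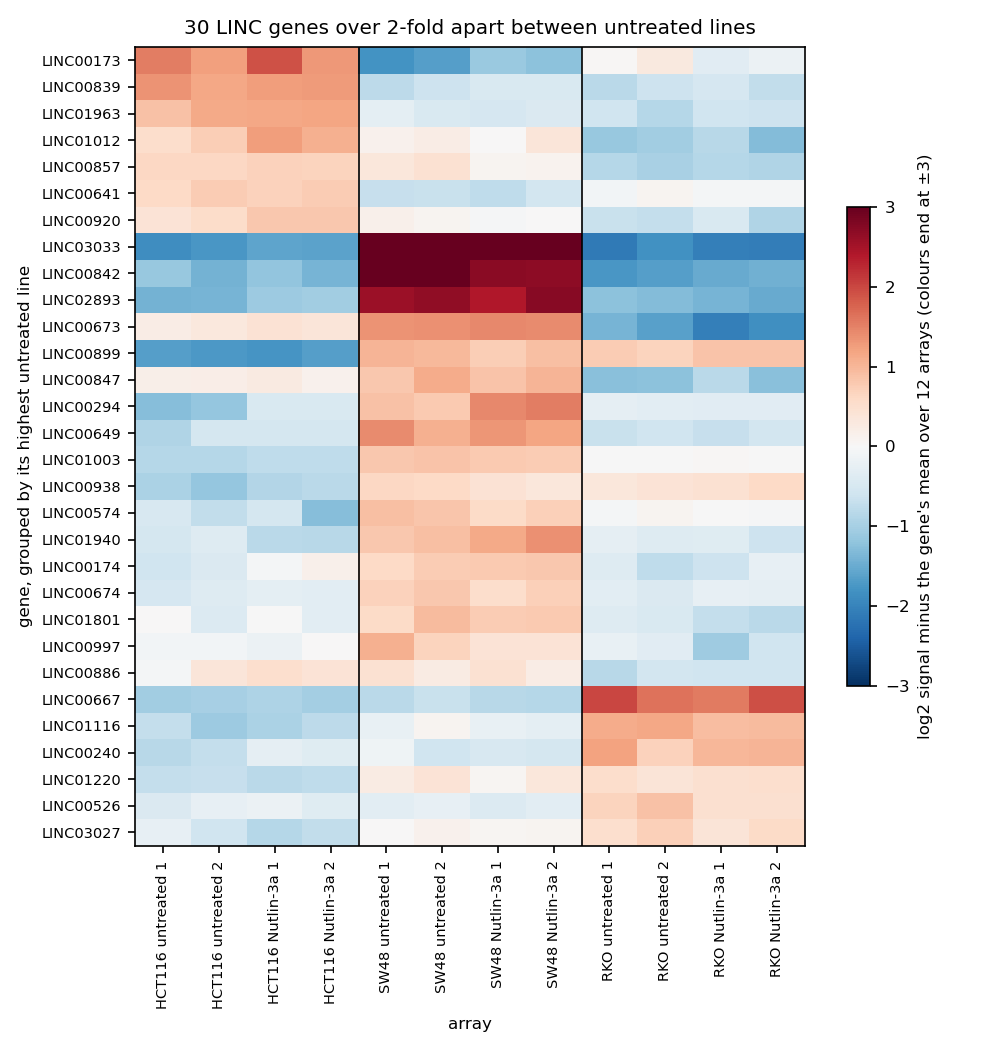
Log2 signal minus the gene's own mean over 12 arrays (colour, ending at ±3) for the 30 LINC genes whose untreated lines lay over 2-fold apart, with arrays in columns and genes in rows, grouped by highest line. LINC03033, LINC00842 and LINC02893 are far above their means on all 4 SW48 arrays, and the Nutlin-3a columns look like the untreated ones of the same line.

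In SW48, 3 RNAs were present at a level that the other lines did not approach. LINC03033 read 10.52 and 10.55 in untreated SW48, 5.08 and 5.20 in HCT116 and 4.82 and 5.14 in RKO. The signal was 42.0-fold that of HCT116 (log2 difference 5.39 ± 0.094) and 46.9-fold that of RKO. LINC00842 read 9.01 and 8.90 in SW48, 4.77 and 4.48 in HCT116 and 4.16 and 4.24 in RKO, which made SW48 20.1-fold higher than HCT116 and 26.9-fold higher than RKO. LINC02893 read 7.97 and 8.05 in SW48, 3.97 and 4.01 in HCT116 and 4.16 and 4.10 in RKO, with SW48 16.2-fold above HCT116 and 14.7-fold above RKO. In the other 2 lines all 3 of these RNAs lay below 5.73, the 90th percentile of the hair and skin family. There, and wherever the lower line lies under 5.73, a fold is one of signal against a value not told apart from background, and the difference in RNA may be larger. LINC00649 followed at 6.43 ± 0.25 (SD, n = 2) in SW48 against 4.29 and 4.66 in HCT116 and 4.51 and 4.59 in RKO, 3.88-fold the signal of HCT116. LINC00842, LINC02893 and LINC00649 reached a line mean of 5.0 in SW48 alone and LINC03033 in SW48 and, at 5.24, in HCT116, and no test of their line difference is given. Each of the 4 kept the same pattern with Nutlin-3a, where the effect in SW48 was between -0.36 and 0.25 on the log2 scale and passed no test.

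HCT116 held the highest levels of LINC00173, LINC00839, LINC01963 and LINC00339. LINC00839, studied in neuroblastoma, read 8.58 and 8.38 in untreated HCT116, 6.44 and 6.61 in SW48 and 6.42 and 6.61 in RKO, and was 3.88-fold higher than in SW48 (adjusted p = 1.72e-07) and 3.90-fold higher than in RKO. LINC01963 read 8.81 and 9.07 in HCT116 against 7.64 and 7.48 in SW48 and 7.34 and 7.08 in RKO. LINC00339 read 6.45 and 6.57 against 5.54 and 5.49 and 5.59 and 5.90. The arrays of HCT116 lay above all others in each of these 3 genes. LINC00173 stepped down from 7.84 and 7.53 in HCT116 through 6.34 and 6.59 in RKO to 4.51 and 4.66 in SW48, an 8.56-fold range of signal. Its second, dimmer probe set gave a SW48 minus HCT116 difference of -0.36 where the brighter one gave -3.10, and the mean of both gave -1.73.

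RKO stood highest for LINC00667, LINC00240, LINC01116 and LINC00526. LINC00667 read 7.44 and 7.07 in untreated RKO, 4.39 and 4.43 in HCT116 and 4.62 and 4.77 in SW48, 7.16-fold the signal of HCT116 and 5.91-fold that of SW48. LINC00526, its neighbour on chromosome 18, read 5.88 and 6.10 in RKO, 4.79 and 4.98 in HCT116 and 4.90 and 4.98 in SW48, a 2.15-fold difference from HCT116. Both were high in RKO and dim in the other 2 lines, with line means under 5.0, and entered the set through RKO alone, so no test is given. LINC01116, which lies in the HOXD region, stepped up from 5.28 and 4.89 in HCT116 through 5.77 and 6.06 in SW48 to 7.11 and 7.15 in RKO. LINC00240 read 6.71 and 6.20 in RKO, 4.66 and 4.78 in HCT116 and 5.37 and 4.90 in SW48, and HCT116 and SW48 did not differ by the test (adjusted p = 0.0728).

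A few RNAs were low in 1 line rather than high in 1. LINC00899 was low in HCT116, at 5.26 and 5.19, against 7.93 and 7.89 in SW48 and 7.67 and 7.57 in RKO, 6.44-fold and 5.27-fold above HCT116. LINC00673 was low in RKO, at 5.98 and 5.75, against 7.60 and 7.70 in HCT116 and 8.72 and 8.75 in SW48, where it was 7.32-fold higher. LINC00847 showed the same order, at 5.29 and 5.32 in RKO, 6.72 and 6.75 in HCT116 and 7.37 and 7.67 in SW48, and a second probe set gave a RKO minus HCT116 difference of -0.41 where the brighter one gave -1.43. LINC00857 was low in RKO, at 7.35 and 7.24, with 8.83 and 8.83 in HCT116 and 8.54 and 8.67 in SW48. LINC00294, at 4.16-fold, had HCT116 lowest and SW48 highest before treatment.

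Promoters of the widest SW48 and RKO genes are shown next, from the same table, build and window. LINC03033 lies at chr14:61570290-61570589 and LINC00667 at chr18:5237850-5238149, both on the plus strand, with motifs in capitals as before.
LINC03033: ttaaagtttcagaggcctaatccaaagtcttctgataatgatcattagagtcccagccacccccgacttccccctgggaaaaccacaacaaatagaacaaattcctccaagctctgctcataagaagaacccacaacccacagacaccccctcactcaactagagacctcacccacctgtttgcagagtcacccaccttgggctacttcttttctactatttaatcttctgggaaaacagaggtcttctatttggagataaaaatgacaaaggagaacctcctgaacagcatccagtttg
LINC00667: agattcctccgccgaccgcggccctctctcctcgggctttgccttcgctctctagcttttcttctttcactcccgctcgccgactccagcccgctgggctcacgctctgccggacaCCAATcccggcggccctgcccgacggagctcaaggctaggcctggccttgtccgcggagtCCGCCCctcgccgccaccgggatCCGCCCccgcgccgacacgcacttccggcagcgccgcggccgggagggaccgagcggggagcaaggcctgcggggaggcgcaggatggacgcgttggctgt
The LINC03033 start has a CpG ratio of 0.073 and none of the motifs searched, while LINC00667 has a ratio of 0.99, 1 CCAAT box and 2 GC boxes. Of the 130 genes 98 had a promoter entry, with 108 promoters. A CpG ratio above 0.6 was found in 51.9% of these promoters, against 12.7% of the promoters of LINC genes under the threshold, 26.0% of all long noncoding RNA promoters and 62.1% of protein-coding ones. A GC box (GGGCGG) was present in 47.2%, against 16.2% for LINC genes under the threshold and 44.9% of all promoters. TATAAA was in 13 of the 108, against 11.5% of all promoters. The share was 31.5% against 34.6% for CCAAT and for CACGTG 7.41% against 7.25%. Each motif was searched on both strands, and none of them contains another. The 52 genes with a ratio above 0.6 had a median untreated span of 0.57, and 35 of them (67.3%) differed between lines. The 46 others had a median span of 0.33, and 25 (54.3%) differed. Over all genes the share was 58.1%. Genes that reached the threshold through 1 line had to differ, and all 8 of them passed the untreated F test. Of these, LINC00842, LINC00667 and LINC00526 had ratios of 0.89, 0.99 and 0.90 and so count in the CpG-rich class. How all 8 divide between the classes was not counted. The shares that differed are therefore partly set by the choice of genes, and the difference between the classes was not tested. The CpG-rich genes were also somewhat brighter, with a median level of 5.89 against 5.63, and what part base composition of the probes plays was not tested.

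The 6 RNAs with the highest mean signal were LINC01123, LINC01106, LINC00294, LINC01000, LINC00265 and LINC01278. LINC01123 ran from 11.04 to 11.79 over the 12 arrays and was highest in HCT116 and lowest in SW48 (log2 difference -0.71, adjusted p = 2.64e-06). LINC01106 ran from 10.32 to 11.34 and was lower than in HCT116 by a log2 difference of -0.58 in SW48 and -0.64 in RKO. LINC01278 ran from 8.18 to 8.99 with SW48 highest, and LINC00265 from 8.42 to 9.04, also with SW48 highest. LINC01000 ran from 8.79 to 9.24 and did not differ between untreated lines by the test (adjusted p = 0.926). Its second probe set, with a mean of 7.95, gave a SW48 minus HCT116 difference of 0.41 where the brighter one gave 0.02. For RKO minus HCT116 the second probe set gave 0.29 and the brighter one 0.05.

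The 6 steadiest RNAs over the 12 arrays were LINC01019, LINC00226, LINC01554, LINC02398, LINC01128 and LINC00307. LINC01128 kept between 7.61 and 7.89 and LINC01554, studied in liver cancer, between 6.58 and 6.77. The means of the other 4 lay below the 90th percentile of the hair and skin family, with arrays from 5.04 to 5.76. None of the 6 passed the untreated F test, with adjusted p between 0.108 and 0.937, or a Nutlin-3a test, with adjusted p for the mean effect between 0.274 and 0.859. The 6 were picked by their small spread over these same arrays, so this outcome was largely set by the choice and is no separate result.

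A list of 40 LINC RNAs studied in cancer had 26 measured genes, of which 13 were in the set. Over the 26, 1 fell in SW48 (LINC00857, background 1.74%), 1 fell in RKO (LINC00673, background 0.793%) and 2 fell over the lines (background 6.44%). The last were LINC00941 and LINC00460, the latter just outside the threshold and lower by a log2 effect of -0.21 (adjusted p = 0.047). The median mean effect of the list was -0.01. Untreated levels differed between lines in 9 of the 13 by limma's F test, beside 58.1% of all genes and 72.9% of those at 5.0 or above. The 9 include LINC00667, which entered the set through RKO alone. LINC00941 read 7.95 and 7.95 in untreated HCT116, 7.93 and 8.03 in RKO and 7.08 and 7.33 in SW48, the low line (adjusted p = 8.38e-05 against HCT116). LINC00467 was highest in RKO, at 8.21 and 8.15 against 7.77 and 7.99 in HCT116 and 7.66 and 7.77 in SW48. LINC00659 was highest in SW48, at 6.38 and 6.47 against 5.59 and 5.46 and 5.27 and 5.84. LINC00511 was lowest in RKO, at 4.89 and 5.00 against 5.74 and 5.57 in HCT116 and 5.73 and 5.52 in SW48. LINC00324 was higher in SW48 than in HCT116 by 0.68 (adjusted p = 0.00512). The other 4 did not pass: LINC00665, LINC00707 and LINC00942, between 4.90 and 5.98 on all arrays (adjusted p = 0.42, 0.661 and 0.429), and LINC01554 (adjusted p = 0.937).

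Some named LINC genes had group means that ran with those of a protein-coding neighbour in RefSeq order, and others ran against it. A neighbour here is the next protein-coding gene on a side, at any distance. Of the 45 named genes 40 had a measured protein-coding neighbour, which made 60 pairs. Pearson's r was taken over the 6 group means, which share the same arrays and lines. It was above 0.9 in 9 pairs and below 0 in 25, with a median of 0.20, and is given as a description only. Genes that are not neighbours were not compared, so whether 9 of 60 is a high share was not tested. AEBP2 with LINC02398 gave -0.97 and FBXL14 with LINC00942 gave -0.93. TCP11L1, which precedes LINC00294 on the same strand, read 7.05 and 7.08 untreated and 7.62 and 7.66 treated in HCT116, 8.96 and 8.87 against 9.50 and 9.61 in SW48, and 7.64 and 7.57 against 7.54 and 7.63 in RKO. TCP11L1 thus rose by 0.57 ± 0.066 in HCT116 (adjusted p = 0.000885) and 0.64 ± 0.066 in SW48 (adjusted p = 0.000557), with -0.02 in RKO and an adjusted p of 0.0282 for a difference between lines. Its r with LINC00294 was 0.99, with the same order of lines before treatment.

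**Figure D5:**
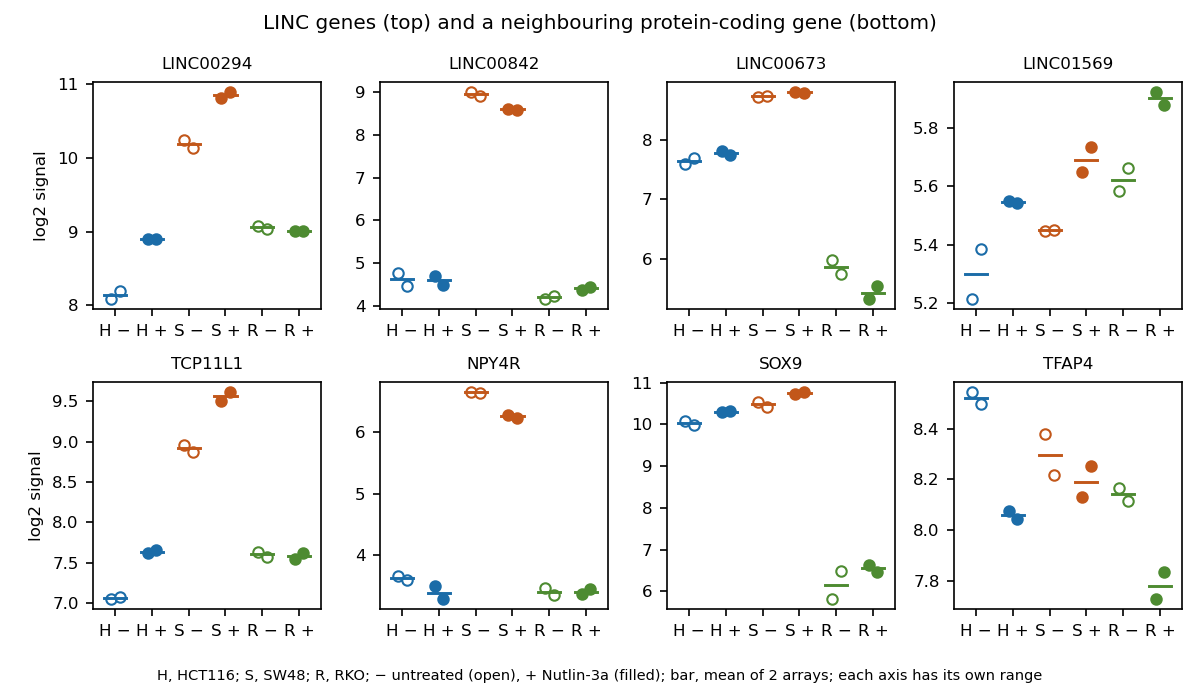
Log2 signal (vertical axes, each with its own range) on every array for 4 LINC genes in the top row and a neighbouring protein-coding gene under each. Open circles are untreated, filled circles Nutlin-3a, bars means of 2 arrays, and H, S and R are HCT116, SW48 and RKO. TCP11L1 repeats the pattern of LINC00294 and NPY4R that of LINC00842, while TFAP4 is lower with Nutlin-3a in H and R, where LINC01569 is higher.

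NPY4R, a receptor for pancreatic polypeptide, neighbours LINC00842 on the opposite strand and was likewise high in SW48 alone, at 6.66 and 6.64 against 3.65 and 3.59 in HCT116 and 3.46 and 3.34 in RKO (r = 0.998). NPY4R has a near-identical copy in the genome that its probes may not tell apart. SOX9, a transcription factor of intestinal crypt cells, is a neighbour of both LINC00673 and LINC00511 in RefSeq order, at distances not given here. All 3 genes were low in RKO. SOX9 read 5.82 and 6.48 in untreated RKO, 10.08 and 9.99 in HCT116 and 10.53 and 10.42 in SW48, with r = 0.958 for LINC00673 and 0.97 for LINC00511. It therefore enters the count of pairs above 0.9 once with each of these RNAs. ANXA11, a calcium-dependent phospholipid-binding protein, tracked LINC00857 (r = 0.998), from 8.42 and 8.28 in RKO to 9.14 and 9.04 in HCT116. TFAP4, a helix-loop-helix transcription factor beside LINC01569, went the other way: it fell by 0.31 over the lines (adjusted p = 0.0017) where LINC01569 rose, with r = -0.92. ZBTB14, beside LINC00667 and LINC00526, fell by 0.45 over the lines (adjusted p = 0.000556), while the mean effects of the 2 RNAs were -0.05 and -0.10 and did not pass. Of the 55 neighbours 10 passed the test of the mean effect, where 10.8% of all genes did, and 6 of those 10 rose.

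Taking for each LINC gene its nearest measured flanking gene gave 106 pairs. Across these genes, which are not independent replicates, r between the 2 mean Nutlin-3a effects was 0.17. For the difference of RKO from SW48 it was 0.37, for SW48 from HCT116 0.26 and for RKO from HCT116 0.25.

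The RNAs whose 6 group means most resembled those of the 4 with the largest mean effects were taken from the set itself. For LINC00294 they were LINC01278 (r = 0.97), LINC00324 (0.96) and LINC00265 (0.95), all with SW48 highest. For LINC00663 they were LINC01569 (0.87), LINC02145 (0.86) and LINC02800 (0.85). For LINC00997 they were LINC01347 (0.96), LINC01801 (0.95) and LINC00239 (0.93), and for LINC00999, which passed no test, LINC00933 (0.84), LINC02145 (0.84) and LINC01164 (0.82). These values rest on 6 means each, most of whose spread lies between lines.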

How the data were processed

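Total RNA of the 12 samples was measured on 1 array each. The authors deposited a table of log2 signals with 1 column per array. Per the submitters' processing notes the GCOS software was used, while version, background correction and normalization were not stated there. The log base is unstated, and base 2 was inferred from the spread of values. The deposited value table held 37270 probe sets, of which 14530 carry 1 gene symbol in the platform annotation, and the probe set with the highest mean stood for each of 14118 genes. Columns of other samples numbered 0.

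With limma 3.58.1 (R 4.3.3), 6 group means were fitted over the 12 arrays. Empirical Bayes moderation added 3.71 prior to 6 residual degrees of freedom. P-values were adjusted over all genes by the Benjamini-Hochberg method and called under 0.05. The procedure was tested on simulated data. The number of arrays limits the precision. Same-numbered arrays were checked for pairing, and no scan date or batch was used, so line and any culture batch cannot be told apart.

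Genes were named by rule: every called gene, the 8 largest mean effects, the 10 widest and up to 4 highest per line, the 6 brightest, the 6 steadiest, those in a list of cancer-studied LINC RNAs, those at the threshold, and measured neighbours. Members, lists and rules were chosen with earlier results of these data known. The hair and skin gene family was chosen after the data were seen. Promoters, gene types and neighbours came from NCBI RefSeq tables of assembly GRCh38.p14, and the build of the probe sets is not given here.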

Additional observations from a re-analysis of the deposited data

Results flagged for a closer look

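LINC00294 met the criterion for a difference between cell lines: the adjusted p of limma's test that the Nutlin-3a effect is equal in HCT116, SW48 and RKO was 0.0103. The log2 effects were 0.76, 0.66 and -0.05, each ± 0.066 (SE, n = 2 arrays per group). Without an RKO untreated array the adjusted p was at most 0.0584. Groups of 2 arrays are too small for a search for outlying arrays.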

How the results depend on the processing

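Counts of called LINC genes in the untreated comparisons stayed within 1.5 times under every alternative. For Nutlin-3a they moved as follows, the cause of each move being not tested beyond the alternative's own construction. In RKO (1) the count was 0 with quantile normalization, arrays centred on their median, all probe sets tested, the replicate block, adjusted p under 0.01 or the line fitted alone, and 4 when only genes at 5.0 or above were tested or with an intensity trend and robust prior. In HCT116 (2) it was 5 with genes at 5.0 or above only, 6 with the trend and robust prior and 1 alone. In SW48 (4) it was 2 with all probe sets, 2 at 0.01 and 1 alone. For the mean effect (9) it was 4 with all probe sets, 5 with the replicate block and 3 at 0.01. For the difference between lines (1) it was 2 with the trend and robust prior and 0 at 0.01. The replicate block changed no other count by over 1.5 times. Same-numbered arrays shared only a number: correlations of their deviations between groups ran from -0.127 to 0.055 over 15 pairs, 0 of them above 0.1.

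Leaving out each array in turn gave 1 to 5 genes in HCT116, 1 to 4 in SW48, 0 to 2 in RKO, 4 to 8 for the mean effect and 0 to 1 for the difference between lines. The untreated counts ran from 50 to 58 for SW48 against HCT116, 39 to 48 for RKO against HCT116, 47 to 59 for RKO against SW48 and 66 to 73 for the F test. A lone array was assumed to vary like the other groups. For single named genes and tests, 2466 values kept direction and call, 167 lost the call and 0 reversed. Dim signal limits the set: 50 of 130 genes averaged under 5.5.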

Other observations

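Of the 130 LINC genes 12 overlap a protein-coding gene in RefSeq, and 6 have a protein-coding start on the other strand within 1 kb. The partner was measured for 4 of these. C1orf174, which starts opposite LINC01134, fell by 0.20 over the lines (adjusted p = 0.00934, limma), and LINC01134 gave -0.13. For untreated SW48 minus HCT116, C1orf174 gave -0.46 and LINC01134 0.20. SP5, a zinc finger transcription factor opposite LINC01124, was higher in untreated SW48 than in HCT116 by 1.10 (adjusted p = 1.37e-05), with 0.18 for LINC01124. For untreated RKO minus HCT116, SP5 gave 0.55 and LINC01124 -0.37, and for RKO minus SW48 they gave -0.55 and -0.54. CAPN15 opposite LINC00235 and POFUT2 opposite LINC00205 gave mean Nutlin-3a effects of -0.09 and 0.02, neither of which passed.

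A second probe set was present for 14 of the genes. For LINC01061 the brighter and dimmer probe sets gave mean Nutlin-3a effects of 0.09 and 0.24, and for LINC01144 SW48 minus HCT116 differences of 0.89 and 0.07, genes picked after their values were seen.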
